A study of Mus musculus with 14 samples.

Results

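Camk2b and 8 other calmodulin-dependent protein kinase genes were followed in spleen RNA of WT and Sting gt/gt mice. The 9 genes were Camk2a, Camk2b, Camk2d, Camk2g, Camk1, Camk1d, Camk4, Camkk1 and Camkk2, out of 22911 genes with a symbol on the array. They were read from 18 of 56605 probes, namely every probe whose accession maps to one of these symbols. Camk2b was selected on its genotype difference on these arrays and Camk2a was picked from the same contrast, so their genotype values are given as a description with no test. The other 7 genes entered as relatives of Camk2b, and their genotype differences were tested.

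The study asked how loss of STING changes the immune response in collagen-induced arthritis. Both groups had been immunized with an intradermal injection of complete Freund's adjuvant and type II collagen (CFA + CII), and spleens were taken 2 weeks later. The labels give an age of 10 to 14 weeks, which the study's methods state for the start of immunization. The 7 WT mice are taken here as C57BL/6, while the study's methods state neither their strain nor their substrain. The 7 Sting gt/gt mice carried the golden ticket allele of Sting (Tmem173), which was made with the mutagen ENU on a C57BL/6 background. WT mice were bought from an animal center and Sting gt/gt mice came from another laboratory. Source, any difference in substrain and genotype therefore cannot be told apart. RNA of each mouse was hybridised to 1 one-colour Agilent array, and the labels call the tissue spleen while the series title calls it splenocytes. Because the RNA comes from a mixture of cells, fewer cells of a type and less RNA per cell cannot be told apart.

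Calmodulin binds calcium and then opens a family of serine and threonine kinases. CaMKII is a large ring of subunits, encoded by Camk2a, Camk2b, Camk2d and Camk2g, and it can stay active after calcium falls by phosphorylating itself. CaMKI and CaMKIV act as single chains and need a further kinase, Camkk1 or Camkk2, to reach full activity. The alpha and beta subunits are best known from neurons, while delta and gamma are found in most tissues. In lymphocytes CaMKIV and CaMKII act downstream of antigen receptor signals, and Camkk2 also activates AMP-activated kinase (AMPK).

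The start region of Camk2b is shown because this gene had the largest genotype difference of the 9. RefSeq (build GRCm38.p6) gives 300 bases at chr11:6065699-6065998 on the minus strand, from 250 bases before to 50 bases after the transcript start. Capitals mark the GC boxes (GGGCGG, searched on both strands).

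Camk2b: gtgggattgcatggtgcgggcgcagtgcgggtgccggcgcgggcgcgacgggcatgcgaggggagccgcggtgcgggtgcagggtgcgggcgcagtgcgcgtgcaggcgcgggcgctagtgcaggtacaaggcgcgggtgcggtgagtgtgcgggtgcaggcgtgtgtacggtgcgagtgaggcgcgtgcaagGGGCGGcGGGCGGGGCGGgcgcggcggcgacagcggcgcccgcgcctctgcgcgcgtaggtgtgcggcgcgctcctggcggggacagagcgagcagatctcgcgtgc

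The window holds 3 GC boxes, with first bases at -57, -50 and -45 from the start, and the last pair share a base. A GC box was found in 35.7% of the 32851 promoters of this length, and in 5 of the 6 members with a listed window. The window was 77.3% G or C, which was the highest of the 7 windows listed for 6 of the members. No match was found on either strand to the cAMP response element (TGACGTCA), to TGACG within it, to the E-box (CACGTG) or to the TATA box (TATAAA). These letters were found in 1.79%, 20.8%, 7.15% and 13.6% of all promoters, in that order.

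Values are the background-corrected signal on a log2 scale relative to the 75th percentile of the same array, and are called log2 signal. Of all probes, 30781 to 34400 were well above background per array, and arrays correlated at 0.961 to 0.993. Replicates 1 to 3 of both genotypes were scanned on scan day 1 and replicates 4 to 7 on scan day 2, and principal component 1 (42.6% of the variance) parted the days. On scan day 2 the 4 Sting gt/gt arrays shared a slide that held no WT array, so slide and genotype cannot be told apart on that day. Markers of B cells, T cells, macrophages and erythroid cells were all measured, with 26 of 26 listed genes above the filter. The Sting1 probe read 2.35 to 2.85 log2 signal in WT and 2.45 to 2.77 in Sting gt/gt, a difference of 0.04 (SE 0.10, limma, unadjusted p = 0.719), so this probe is no check of the labels.

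WT replicate 4 stood apart from the other 13 arrays in genes of the exocrine and endocrine pancreas. The elastase gene Cela2a read 8.20 log2 signal there and -6.01 to -0.07 on the other arrays. Carboxypeptidase A1 (Cpa1) read 6.95 against -6.89 to -2.26, and insulin 2 (Ins2) read -2.58 against -7.65 to -6.55. Of 10 listed pancreas markers, 8 were higher on WT replicate 4 than on every other array, while the glucagon gene Gcg was not well above background on any array. The mean of the 10 markers was 1.83 on WT replicate 4, -5.66 to -3.94 on the other 6 WT arrays and -5.68 to -3.71 on the 7 Sting gt/gt arrays. The main Camk2b differences are given with and without this array.

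Camk2b was the member with a large difference between genotypes. Its brighter probe, present as 10 spots on each array, was well above background on all 14 arrays. In WT its log2 signal was -3.13, -3.49 and -4.12 in replicates 1 to 3 and -0.86, -2.84, -2.60 and -2.73 in replicates 4 to 7. In Sting gt/gt it was -1.57, -1.72 and -1.33 in replicates 1 to 3 and -0.96, -0.93, -0.73 and -0.54 in replicates 4 to 7. WT replicate 4 lay inside the Sting gt/gt range, and the other 6 WT arrays lay below every Sting gt/gt array.

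**Figure D1:**
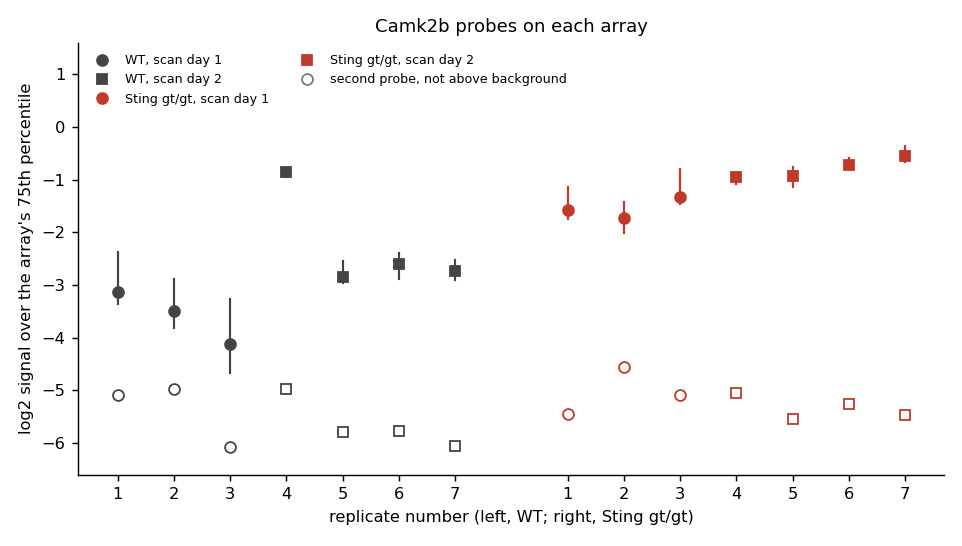
Log2 signal of the 2 Camk2b probes on each of the 14 arrays, by genotype and replicate number, with circles for scan day 1 and squares for scan day 2. Filled symbols are the mean of the unflagged spots of the 10-spot probe and bars run from its lowest to its highest spot. WT replicate 4 sits at -0.86 among the Sting gt/gt arrays (-1.72 to -0.54), and the other WT arrays sit at or below -2.60.

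The mean was -2.83 ± 1.01 (SD, n = 7) in WT and -1.11 ± 0.44 (SD, n = 7) in Sting gt/gt. The genotypes differed by 1.72 on the log2 scale (SE 0.38), which is 3.28-fold. Without WT replicate 4 the difference was 2.04 (SE 0.26), or 4.12-fold, and the lowest Sting gt/gt array lay 0.88 above the highest WT array. With that array left out, 0.0661% of probes separated the groups in this direction, a figure from which nothing is read since this contrast chose Camk2b.

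The spots of the probe show the technical spread within an array, which does not include the variation between mice. The SD over the 10 spots ran from 0.05 to 0.39 log2 with a median of 0.14, and 139 of 140 spots were well above background. On WT replicate 4 the 10 spots read a processed signal of 314 to 353. The median spot read 32.0 to 114 on the other WT arrays and 175 to 458 on the Sting gt/gt arrays.

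The other Camk2b probe, which carries the same accession, was not well above background on any array. Its log2 signal ran from -6.08 to -4.97 in WT and from -5.53 to -4.56 in Sting gt/gt, and it was not tested. The difference in Camk2b therefore rests on 1 probe.

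The Camk2b difference was also read within each scan day. Both days are parts of the arrays that chose Camk2b, so these values are a description and no replication. On scan day 1 WT read -4.12 to -3.13 and Sting gt/gt -1.72 to -1.33, with a difference of 2.04 (SE 0.26). On scan day 2 WT read -2.84 to -0.86 and Sting gt/gt -0.96 to -0.54, with a difference of 1.47 (SE 0.39) and overlap through WT replicate 4. Without that array the difference on scan day 2 was 1.94 (SE 0.14). Slide and genotype cannot be told apart on scan day 2.

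The high value of WT replicate 4 came with the high pancreas markers on the same array. WT replicate 7 had the highest marker mean of the other WT arrays, at -3.94, and its Camk2b value of -2.73 lay within theirs. Among the Sting gt/gt arrays, replicate 7 had the highest marker mean, at -3.71, and also the highest Camk2b value, at -0.54. Replicates 3 and 5 had the lowest marker means of that group, at -5.68 and -5.59, with Camk2b values of -1.33 and -0.93. Replicate 6 had a marker mean of -5.57 with a Camk2b value of -0.73, and replicate 4 had -4.52 with -0.96. Replicates 1 and 2 had marker means of -5.29 and -5.13, with Camk2b values of -1.57 and -1.72. The 6 other WT arrays and the 7 Sting gt/gt arrays had overlapping marker means and did not overlap in Camk2b. The part of the pancreas signal in the value of WT replicate 4 was not tested.

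**Figure D2:**
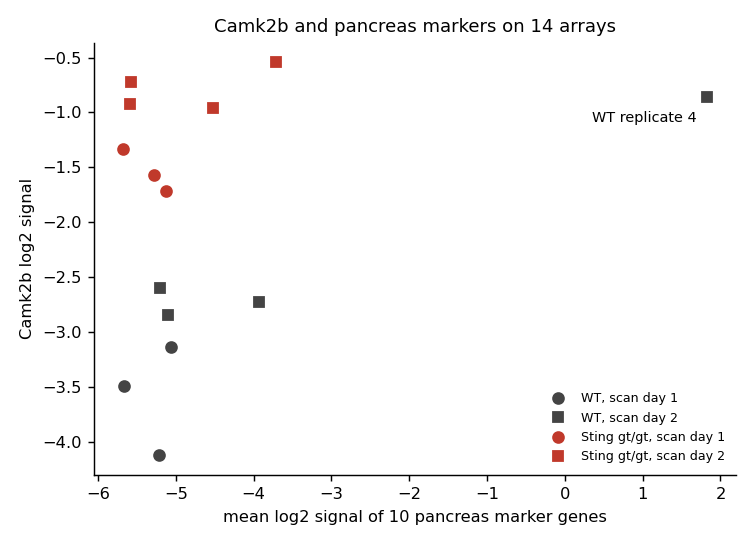
Camk2b log2 signal against the mean log2 signal of 10 pancreas marker genes on 14 arrays, by genotype (colour) and scan day (circles and squares). WT replicate 4 lies alone on the right at a marker mean of 1.83, while the other 13 arrays lie between -5.68 and -3.71 and fall into a lower WT and an upper Sting gt/gt group.

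WT replicate 4 was also read against both groups over all probes. Leaving it out, the groups did not overlap for 27 probes, 0.085% of those compared. On these probes WT replicate 4 lay in the Sting gt/gt range for 12, in the WT range for 14 and between them for 1. Whether so small a share of probes exceeds chance was not tested, so nothing about this array is read from these counts. The probe for NM_008710 was the only one past an adjusted p of 0.05 between genotypes (limma, adjusted p = 0.0124, 0.00315% of probes). It read 0.52 on WT replicate 4, within the WT range of 0.51 to 0.73 and below the Sting gt/gt range of 1.36 to 2.18. The fit that found this probe counted WT replicate 4 as WT, which favours such a value, so nothing is read from it.

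Camk2a, the alpha subunit of CaMKII, gave different values on its pair of probes. The brighter probe read -3.24 to -2.52 log2 signal in WT (median -3.06) and -3.74 to -2.30 in Sting gt/gt (median -2.95), a difference of -0.03 (SE 0.18). The dimmer probe read -4.34 to -3.50 in WT (median -4.20) and -3.95 to -3.30 in Sting gt/gt (median -3.59), a difference of 0.49 (SE 0.14). Both sets of values overlapped between genotypes. On the dimmer probe the difference was 0.21 (SE 0.24) on scan day 1 and 0.70 (SE 0.10) on scan day 2. On scan day 2 WT read -4.34 to -4.06 and Sting gt/gt -3.60 to -3.44. Slide and genotype coincided on that day, when 22.7% of all tested probes passed an unadjusted p of 0.05 in limma. Since Camk2a was picked from the genotype contrast, nothing is read from this separation. The probes match different accessions of the gene.

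Among the 7 other kinases, Camk1 alone passed the unadjusted threshold of 0.05 that the study used. That is 1 of 7, where 2.9% of all 14729 genes with a symbol passed it and 1.94% passed it with a higher signal in Sting gt/gt. None of the 7 passed after Benjamini-Hochberg adjustment over all probes in limma, where 0% of genes with a symbol passed. Of the 7 differences 5 were above 0 and 2 below, with a median of 0.05 against 0.04 over all genes. They ran from -0.08 to 0.42 on the log2 scale.

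**Figure D3:**
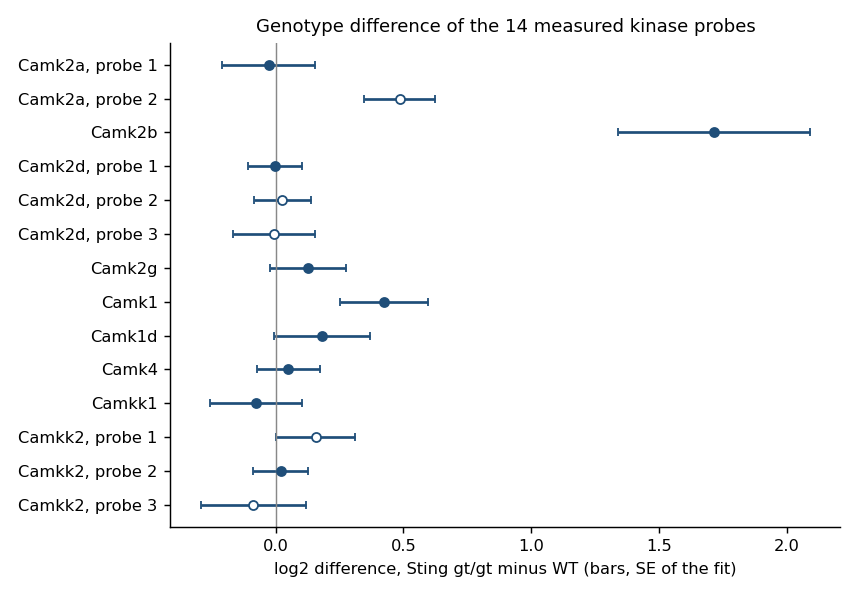
Genotype difference in log2 signal (Sting gt/gt minus WT) with its SE for the 14 probes of the 9 kinase genes that were well above background, filled for the brightest probe of each gene. Camk2b lies at 1.72, Camk1 at 0.42 and the dimmer Camk2a probe at 0.49, and the other probes lie between -0.09 and 0.18.

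Camk2d and Camk2g encode the CaMKII subunits found in most tissues. Camk2d read -0.75 to -0.19 log2 signal in WT (median -0.54) and -0.83 to -0.34 in Sting gt/gt (median -0.54), a difference of -0.0026 with a 95% interval from -0.23 to 0.22. Its dimmer tested probes gave differences of 0.03 (SE 0.11) and -0.01 (SE 0.16), and its remaining probe was not well above background on any array. On each Camk2d probe the genotypes overlapped. Camk2g read 1.61 to 2.36 in WT (median 2.18) and 1.77 to 2.50 in Sting gt/gt (median 2.29), a difference of 0.13 with a 95% interval from -0.19 to 0.44. For both genes the interval ends below the size of the Camk2b difference.

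Camk1 encodes CaMKI alpha, a kinase found in most tissues. It read -2.78 to -2.03 log2 signal in WT (median -2.71) and -2.73 to -1.51 in Sting gt/gt (median -2.15). The difference was 0.42 (SE 0.17, limma, unadjusted p = 0.0258, adjusted p = 1), and 6 of 7 Sting gt/gt arrays lay above the WT median. A two-sided exact permutation test over the 3432 ways to part the arrays gave p = 0.0338. Sting gt/gt replicate 3 was the highest array at -1.51, and without it the difference was 0.32 with an unadjusted p of 0.0582. The unadjusted p was 0.0892 with no scaling between arrays. It was 0.0598 with the slide as a random block and 0.333 as a fixed one.

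Camk1d encodes CaMKI delta, which is abundant in granulocytes. It read 0.43 to 1.14 log2 signal in WT (median 0.76) and 0.46 to 1.67 in Sting gt/gt (median 1.01), a difference of 0.18 with a 95% interval from -0.22 to 0.58. Its other probe was well above background on 1 array. Camk4 encodes CaMKIV, a nuclear kinase of T cells and neurons. It read -1.65 to -1.28 in WT (median -1.53) and -1.71 to -1.06 in Sting gt/gt (median -1.52), a difference of 0.05 with a 95% interval from -0.22 to 0.32. Its other probe was well above background on 5 arrays and was not tested. In both genes the groups overlapped over most of their range.

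Camkk1 and Camkk2 encode the kinases that phosphorylate CaMKI and CaMKIV. Camkk2 read 3.32 to 3.62 log2 signal in WT (median 3.52) and 3.10 to 3.71 in Sting gt/gt (median 3.60), a difference of 0.02 with a 95% interval from -0.21 to 0.25. Its dimmer probes gave 0.16 (SE 0.15) and -0.09 (SE 0.20). Camkk1 read -0.55 to 0.21 in WT (median -0.37) and -1.24 to -0.02 in Sting gt/gt (median -0.26), a difference of -0.08 with a 95% interval from -0.46 to 0.30. Neither gene separated the genotypes over all arrays.

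The Camkk1 difference had opposite signs on the scan days. On scan day 1 it was -0.60 (SE 0.26), with WT at 0.21, -0.37 and -0.31 and Sting gt/gt at -1.24, -0.50 and -0.53. On scan day 2 it was 0.31 (SE 0.11), with WT from -0.55 to -0.27 and Sting gt/gt from -0.26 to -0.02. The order of the genotypes was turned between days. On scan day 2, when slide and genotype coincided, the groups nearly met, at -0.274 in WT and -0.264 in Sting gt/gt. The difference between days was 0.91 (SE 0.26, limma, unadjusted p = 0.0039, adjusted p = 0.108).

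Of the 7 tested members, Camkk1 alone passed the unadjusted threshold for a genotype difference that changed between scan days, where 14.7% of genes with a symbol passed it. None passed after adjustment, where 0.0543% of genes with a symbol did. Within scan day 1 none of the 7 members passed an unadjusted p of 0.05, against 2.7% of genes with a symbol. Within scan day 2 Camkk1 alone passed (limma, unadjusted p = 0.0153), against 20.2%. Camk2b and Camk2a were not tested here because their genotype contrast chose them.

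Between scan days, 3 of the 9 members differed. Camk2b, Camk2g and Camk1d were higher on scan day 2 than on scan day 1 after adjustment, with genotype in the fit, where 38.9% of genes with a symbol passed and 23.3% passed in this direction. Camk2b differed by 1.04 (SE 0.28, limma, adjusted p = 0.00842), or 2.05-fold. Camk2g differed by 0.48 (SE 0.08, adjusted p = 0.000209), and Camk1d by 0.58 (SE 0.11, adjusted p = 0.0012). Camk2b read higher on scan day 2 in both genotypes, with every array of that day above every array of scan day 1 of the same genotype. Without WT replicate 4 its scan-day difference was 0.80 (adjusted p = 0.000799).

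**Figure D4:**
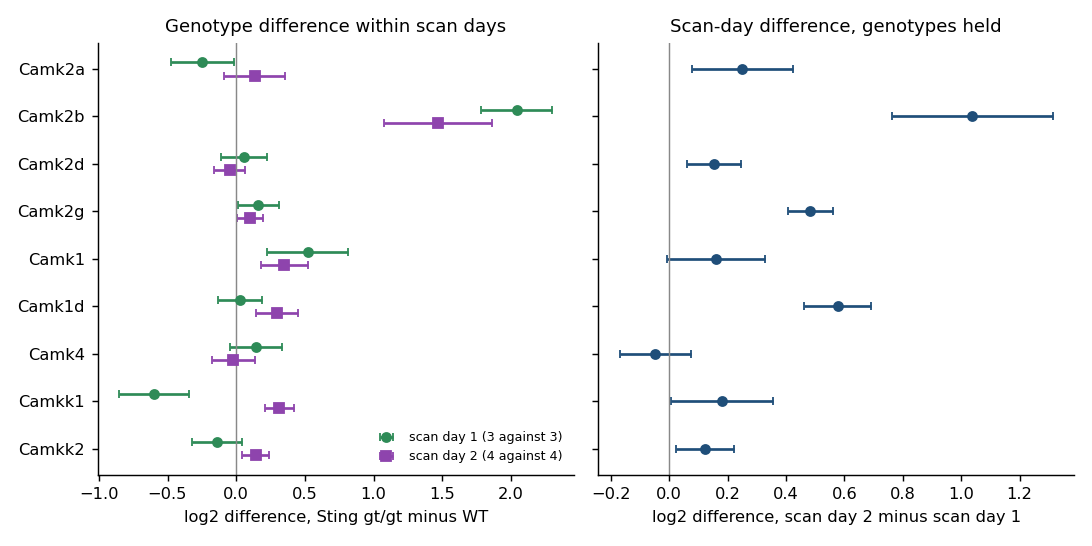
Left, genotype difference in log2 signal within scan day 1 (circles, 3 against 3 arrays) and scan day 2 (squares, 4 against 4) for the brightest probe of each kinase gene; right, scan-day difference with genotype in the fit; bars are the SE. The genotype difference of Camk2b is 2.04 on scan day 1 and 1.47 on scan day 2, and that of Camkk1 changes sign (-0.60 and 0.31). Camk2b, Camk2g and Camk1d are shifted by 1.04, 0.48 and 0.58 between days.

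Other probes of the family also moved between scan days. A dimmer Camk2d probe was 0.40 higher on scan day 2 (SE 0.12, adjusted p = 0.02) and a dimmer Camkk2 probe 0.48 higher (SE 0.09, adjusted p = 0.000639), where 39% of all probes passed. The brightest probes of these genes did not pass, with 0.15 (SE 0.09) and 0.12 (SE 0.10). The authors' deposited table of log2 values held no such shift, since 0% of probes passed there and Camk2b differed by 0.13 (SE 0.27) between days. In that table Camk2b ran from 5.92 to 8.14 in WT and from 8.09 to 8.57 in Sting gt/gt, a genotype difference of 1.66 (SE 0.26).

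Genes around these kinases passed the genotype test about as often as all genes did. Of 66 listed genes 58 were tested, and 2 (3.45%) passed an unadjusted p of 0.05, 1 in each direction, against 2.9% of all genes with a symbol. None passed after adjustment over all probes in limma. Of the 58 differences 35 were above 0 and 23 below, with a median of 0.02 against 0.04 over all genes.

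**Figure D5:**
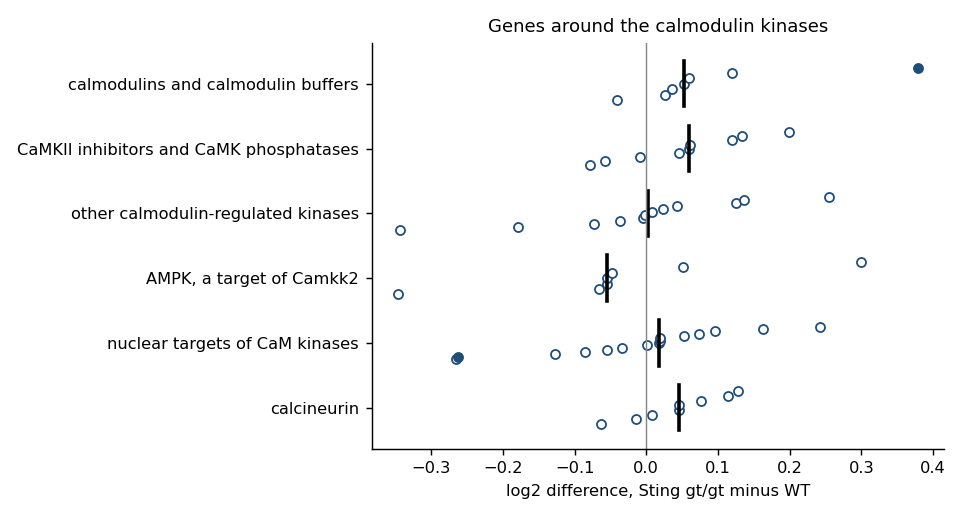
Genotype difference in log2 signal (Sting gt/gt minus WT) for 58 tested genes in 6 lists, 1 point per gene, with a bar at the median of each list and filled points for an unadjusted p under 0.05. Pcp4 at 0.38 and Crem at -0.26 are the filled points, and the list medians lie between -0.05 and 0.06.

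Calm2 and Calm3, which encode calmodulin, gave differences of 0.03 (SE 0.10) and 0.12 (SE 0.10). Pcp4, a small protein that speeds calcium exchange on calmodulin, was the only one of 7 tested calmodulin and buffer genes to pass. It read -3.50 to -2.69 log2 signal in WT and -3.20 to -2.21 in Sting gt/gt, a difference of 0.38 (SE 0.17, limma, unadjusted p = 0.0432, adjusted p = 1). The groups overlapped over most of their range. None of 9 CaMKII inhibitors and phosphatases passed, and the inhibitors Camk2n1 and Camk2n2 gave 0.06 (SE 0.16) and -0.01 (SE 0.15).

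Among nuclear targets, Crem, a transcription factor of the CREB family, passed and was lower. It read -1.88 to -1.41 log2 signal in WT and -2.08 to -1.67 in Sting gt/gt, a difference of -0.26 (SE 0.10, limma, unadjusted p = 0.0189, adjusted p = 1). Its other probes gave values from -0.24 to 0.04. Creb1, the best known target of CaMKIV, gave -0.26 (SE 0.15), and the other 13 tested genes of this list ran from -0.13 to 0.24. None of 12 other calmodulin-regulated kinases, 7 AMPK genes or 8 calcineurin genes passed. The kinases ran from -0.34 to 0.25, with Pnck, a relative of Camk1, at 0.25 (SE 0.12).

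Markers of nerve, where the beta subunit is best known, and of muscle were read beside the kinases. Of 10 genes of nerve and glia 7 were tested and none passed an unadjusted p of 0.05, against 2.9% of all genes with a symbol, with 3 above 0 and 4 below and a median of -0.01. Their mean log2 signal ran from -0.77 to -0.18 in WT and from -0.84 to -0.27 in Sting gt/gt, with WT replicate 4 at -0.77. Of 8 genes of striated muscle 5 were tested and none passed, with means from -3.65 to -2.64 in WT and from -3.36 to -2.32 in Sting gt/gt. The genes that missed the filter on dim probes were Elavl3, Gap43 and S100b for nerve and glia and Ckm, Myh1 and Myh4 for muscle. None of the B cell, plasma cell, T cell, NK cell, macrophage, neutrophil, dendritic cell, platelet or stroma markers passed. The part of these cells in the kinase values was not tested.

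The genes whose log2 signal was most like that of Camk2b over the 14 arrays were Eaf2, Cirbp, Pira2, Dnaaf3 and Gm11423, with Pearson's r of 0.95, 0.89, 0.88, 0.86 and 0.86. Spearman's rho was 0.93, 0.93, 0.85, 0.88 and 0.91. These are the highest of 14729 genes, the arrays share 2 scan days and 2 genotypes, and the values are a description. Eaf2 encodes a partner of the elongation factor ELL, and Cirbp a cold-induced RNA-binding protein.

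Eaf2 read 4.70 log2 signal on WT replicate 4, 3.06 to 3.61 on the other 6 WT arrays and 4.30 to 4.88 on the Sting gt/gt arrays. Leaving out the arrays farthest from the Camk2b median, WT replicates 2 and 3, its r was 0.98, and without WT replicate 4 it was 0.95. Within Sting gt/gt it was 0.86. Within WT it was 0.88 with WT replicate 4 and 0.44 over the other 6 arrays. Pira2 in contrast overlapped between genotypes, with 0.69 to 1.77 on the other WT arrays and 1.42 to 2.21 in Sting gt/gt.

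Among the members, Camk2g, Camk1 and Camk1d were most like Camk2b, with r of 0.67, 0.63 and 0.63. Camk2d reached 0.23, Camk4 0.15, Camkk2 0.12, and Camkk1 and Camk2a 0.01 each. For Camk2g r was 0.41 without WT replicates 2 and 3. Once the mean of each genotype and scan day was subtracted, r was 0.42 for Camk2g, 0.26 for Camk1 and 0.41 for Camk1d. Without WT replicate 4 these values were 0.36, 0.39 and 0.35.

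On that scale a different set came out. The kallikrein genes Klk1b4, Klk1b26, Klk1b5, Klk1 and Klk1b3 had the highest r with Camk2b, at 0.96, 0.95, 0.94, 0.94 and 0.92. Kallikreins are serine proteases of pancreas and salivary gland with near-identical sequences, so their probes may share signal. Klk1b5 read 4.88 log2 signal on WT replicate 4, -3.39 to -1.85 on the other WT arrays and -2.37 to -0.86 on the Sting gt/gt arrays. Without WT replicate 4, and with the means taken again over the other 13 arrays, the 5 values of r were 0.85, 0.78, 0.72, 0.68 and 0.59.

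The genes beside Camk2b on chromosome 11 were read as well. The 5 nearest tested genes on each side were Ykt6, Myl7, Pold2, Aebp1 and Polm on the first and Nudcd3, Rps15a-ps6, Ddx56, Tmed4 and Ogdh on the second. None of these 10 passed an unadjusted p of 0.05, where 2.9% of all genes with a symbol did, and 8 of the differences were above 0, as were 61.7% over all genes. At these shares the counts do not set the neighbours apart from other genes. Myl7, an atrial myosin light chain, gave 1.02 (SE 0.62, limma, unadjusted p = 0.123), and the other 9 lay between -0.05 and 0.19. Nudcd3 and Ddx56 gave 0.11 (SE 0.10) and 0.19 (SE 0.11).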

How the data were processed

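Spleen RNA of 7 WT and 7 Sting gt/gt mice had been labelled with Cy3 and hybridised to 14 one-colour Agilent arrays. The authors extracted the intensity values with Agilent Feature Extraction 11.0.1.1, whose processed signal is corrected for background and not scaled between arrays. The authors also deposited a table of log2 values, whose normalization is not given in the sources used here and whose column medians lie between 5.49 and 5.52. It correlated with the log2 processed signal of the same array at 0.997 to 0.999.

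Log2 values of the processed signal were taken relative to the 75th percentile of their own array. Flagged spots were left out and spots of a probe averaged. Probes were tested when well above background on at least 7 of 14 arrays, which kept 31766, and the tested probe with the highest mean stood for its gene. Probes were named by accession through a RefSeq table, which gave a symbol for 58.3%.

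Genotypes were compared by limma 3.58.1 in R 4.3.3 over all tested probes, without covariates, with Benjamini-Hochberg adjustment over them and an unadjusted p of 0.05 as the study's threshold. The scan-day contrast had genotype in the fit, and its interaction with genotype was fitted apart. Further values came from pandas 2.3.3 and numpy 2.4.6 under Python 3.11.15, and plots from matplotlib 3.10.9. Scripts were tested on simulated data. The number of arrays limits the precision.

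Named genes were the 9 members with all probes, up to 3 genes per list past the threshold, the 5 most like Camk2b by Pearson's r (also after subtracting genotype and scan-day means) and the 5 tested neighbours on each side. Members and lists were chosen with earlier results of these data known, and a few list genes were named after their values were seen. Some listed genes are not reported here by name. Alternatives covered the scaling, background correction, dim-probe filter, flagged spots, probes of a gene, test, slide, scan day, replicate number and each array left out. Values of r without WT replicate 4 were chosen after seeing the data. Both groups carry replicate numbers 1 to 7. Same-numbered arrays correlated in their deviations from group means at 0.16 to 0.54, and at -0.41 to 0.21 once scan-day means were removed, so this pairing comes with the scan day. With the number as a block, 5 listed genes around the kinases passed in place of 2.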

Additional observations from a re-analysis of the deposited data

Results flagged for a closer look

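Of 28 groups of 7 arrays, 3 had an array whose gap to its nearest neighbour was a large part of the group's range, and chance gives such a gap in about 1 of 20 groups. On the Camkk1 probe, WT replicate 1 was the highest WT array at 0.21 log2 signal, with the next at -0.27. On the same probe, Sting gt/gt replicate 1 was the lowest of its group at -1.24, with the next at -0.53. Both arrays are of scan day 1, on which the Camkk1 difference was -0.60. On a dimmer Camk2d probe, Sting gt/gt replicate 7 was the highest of its group at -1.19, with the next at -1.82. The Camk2b value of WT replicate 4 did not meet this criterion, since the other WT arrays were themselves spread from -4.12 to -2.60.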

How the results depend on the processing

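The 33 alternatives reuse the arrays on which Camk2b was chosen, so a kept sign was likely beforehand and lends no further support. The Camk2b difference of 1.72 kept its sign in all of them. It was 1.15 after normexp background correction (median spot signal, offset 50), 1.66 in the deposited table and 2.03 with slide as a fixed block, a fit that rests on the 5 arrays of the 2 slides with both genotypes, and it ran from 1.50 to 2.04 with an array left out in turn. With the replicate number as a block it was 1.72 (SE 0.27). The count of 1 in 7 relatives past an unadjusted p became 0 with no scaling, with the slide as a random block and within scan day 1, and 0 to 1 with an array left out, the 0 being without Sting gt/gt replicate 3. The gene was Camkk1 and not Camk1 within scan day 2 and with the slide as a fixed block. With the methods' t-test the count was 1 at the study's threshold and 0 after Benjamini-Hochberg adjustment. The count of 2 listed genes around the kinases was less settled. It was 0 with median centring and within scan day 1, 1 with quantile normalization, normexp, no filter on dim probes and the slide taken as random, 5 with the replicate block, 6 in the deposited table, 8 with scan day as a fixed block, 8 when arrays were weighted and an intensity trend fitted, 12 within scan day 2 and 8 there without WT replicate 4 (chosen after seeing the data). It ran from 1 to 6 with an array left out. The share of all genes with a symbol that passed also moved with the setting. It was 2.7% within scan day 1, 20.2% within scan day 2 and 6.31% with scan day as a fixed block. Of all tested probes, 7.73% passed in the deposited log2 values. The 12 of 58 listed genes within scan day 2 are to be read against the 20.2%, so that count alone does not set them apart. The count of 3 members between scan days became 5 with median centring and 0 in the deposited table, where Camk2g changed sign to -0.045. Camkk1 changed sign to 0.31 within scan day 2, to 0.33 there without WT replicate 4, to 0.16 with array weights, to 0.06 without Sting gt/gt replicate 1 and to 0.01 without WT replicate 1, and was -0.74 with slide as a fixed block, where Camk2a was -0.47. The replicate block changed no other call. The causes of these changes were not tested.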
